A study of Rattus norvegicus with 12 samples.

Results

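The enzymes of amino acid catabolism and the urea cycle were followed in rat liver through removal of the pituitary and replacement of growth hormone (GH). The members were chosen by name, as the probes whose gene name in the array files, without the endings for predicted or mapped genes, is on a list of 39 names. The list was chosen with earlier results of these data known. Of these names 36 were found, among 35561 distinct gene names on the array. Ass1 is present under its older symbol Ass, and Gpt and Uroc1 were not found by this rule. RNA came from 12-week-old Fischer 344 rats in 6 kinds of liver: intact males, intact females, hypophysectomised (Hypox) males, Hypox females, Hypox males given GH in 1 injection, and Hypox males given GH in 2 injections. The intact and the untreated Hypox RNAs were pools of 3 to 4 livers. The 1-injection RNA was a single pool of 4 livers from rats killed at 30, 60 or 90 min, so that it joins 3 times. The 2-injection RNA was a single pool of 5 livers from animals whose injections were 3 or 4 h apart, and GH was given to males only. A GH animal has therefore lost every pituitary hormone and regained 1 of them. Each of the 6 comparisons was made on 2 arrays with the dyes swapped, with different pools on the 2 arrays except for the GH pools, which were used on both arrays.

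The liver breaks down amino acids after a meal and in fasting, sends their carbon to glucose, ketone bodies or oxidation, and disposes of their nitrogen as urea. Aminotransferases and glutamate dehydrogenase gather the nitrogen as glutamate and ammonia. The urea cycle then fixes ammonia as carbamoyl phosphate and releases urea from arginine, while glutamine synthetase traps remaining ammonia in the hepatocytes around the central vein. Hormones set the amounts of several of these enzymes in liver: glucocorticoids and glucagon are known to induce Tat and Tdo2, and GH is known to spare body protein.

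Tdo2, Cth, Tat and Kmo stood among the most changed members in the most comparisons, and the RefSeq windows around their gene starts (build GRCr8, 250 bases before the start to 50 after it, read in the direction of the gene) are shown because these are the members on which most of the comparisons below turn (4 comparisons each for Tdo2, Cth and Tat, and 3 for Kmo). Tdo2 (chr2:169585537-169585836, minus strand) encodes tryptophan 2,3-dioxygenase. Cth (chr2:249661017-249661316, minus strand) encodes cystathionine gamma-lyase. Tat (chr19:54856354-54856653, plus strand) encodes tyrosine aminotransferase, and Kmo (chr13:90089271-90089570, plus strand) kynurenine 3-monooxygenase. Capitals mark CCAAT, or ATTGG where the motif lies on the other strand.
Tdo2: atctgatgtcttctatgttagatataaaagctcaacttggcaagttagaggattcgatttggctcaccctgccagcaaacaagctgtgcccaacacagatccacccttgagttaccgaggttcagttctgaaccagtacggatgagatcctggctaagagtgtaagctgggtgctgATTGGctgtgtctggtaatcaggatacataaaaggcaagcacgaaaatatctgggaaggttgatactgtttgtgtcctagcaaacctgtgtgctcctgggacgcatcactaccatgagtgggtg
Cth: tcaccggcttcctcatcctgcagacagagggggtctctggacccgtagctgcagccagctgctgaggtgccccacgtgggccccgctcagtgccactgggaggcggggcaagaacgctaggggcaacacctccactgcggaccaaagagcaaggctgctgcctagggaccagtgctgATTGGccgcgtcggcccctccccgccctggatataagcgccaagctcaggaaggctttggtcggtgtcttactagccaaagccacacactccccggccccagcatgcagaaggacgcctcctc
Tat: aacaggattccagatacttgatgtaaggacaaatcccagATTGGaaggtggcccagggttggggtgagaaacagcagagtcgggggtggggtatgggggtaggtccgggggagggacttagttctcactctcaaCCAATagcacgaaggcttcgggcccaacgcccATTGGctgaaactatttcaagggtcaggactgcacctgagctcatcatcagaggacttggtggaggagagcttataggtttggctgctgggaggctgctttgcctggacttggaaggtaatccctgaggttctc
Kmo: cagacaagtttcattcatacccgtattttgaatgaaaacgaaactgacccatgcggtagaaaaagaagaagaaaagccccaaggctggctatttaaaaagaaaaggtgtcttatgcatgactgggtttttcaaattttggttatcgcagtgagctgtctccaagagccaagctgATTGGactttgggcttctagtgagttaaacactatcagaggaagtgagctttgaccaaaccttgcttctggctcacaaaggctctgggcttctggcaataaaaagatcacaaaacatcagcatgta
None of the 4 windows held TTCNNNGAA (the core of STAT5 sites), TTGCNNAA (C/EBP), AGAACA (the hexamer of glucocorticoid receptor sites) or TGACG (the short CREB motif) on either strand. In all, 31 of the 36 members had a window in the reference table. TTCNNNGAA was found in 1 of these 31 windows and in 8.68% of the 27456 promoters of the table. TTGCNNAA was found in 4 windows and in 10.5% of promoters, AGAACA in 4 windows and 20.1%, and TGACG in 7 windows and 22.0%. CCAAT was searched after the 4 windows had been read, and was in 16 of the 31 windows and 37.7% of all promoters. Its first base lay at -74 in Tdo2, -73 in Cth and -76 in Kmo, and at -211, -116 and -84 in Tat, counted from the gene start. These are matches of letters in short windows and say nothing about binding.

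Values are log2 ratios of the RNA named first to the RNA named second, with the standard error (SE) of a limma fit over all 12 arrays (n = 2 arrays per comparison). A log2 ratio of 1 is a 2-fold difference. A member was called higher or lower at an adjusted p under 0.05, adjusted over every probe tested in that comparison. Each gene is its brightest probe, and all 36 members were tested in every comparison. They are among the most abundant transcripts of the liver on this array: 33 of the 36 lay in the brightest 10% of probes, with a median brightness percentile of 97.6. Bright probes are called more often, so the share called in the brightest 10% is given beside that over all probes. All 8 hepatocyte markers, among them Alb and Ttr, were well above background in every RNA on every array. These are whole-tissue RNAs, so fewer cells of a type and less RNA per cell cannot be told apart. On each array and in each dye, 58.4% to 71.1% of probes exceeded background clearly, no spot was saturated, and precision is set by the small number of arrays. With median centring in place of the loess curve that removes dye bias at each brightness, 0 members were called in any comparison, and no named value changed its direction.

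With hypophysectomy of males, transcripts of 11 members rose and those of 6 fell, of 36. Among the aromatic amino acid genes 5 of 10 rose and 1 fell, and among those of methionine, methyl groups and cysteine 4 of 8 rose and 1 fell. Of the 7 genes of glutamate, glutamine and the aminotransferases 3 fell and 0 rose. Of all probes tested in this comparison 37.5% were called (19% higher and 18.5% lower), and of the brightest 10% 51.1%, against 47.2% of the members. The share of members called was therefore near that of other bright probes. The median log2 ratio of the members was 0.16 and that of all probes tested 0.01.

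**Figure D1:**
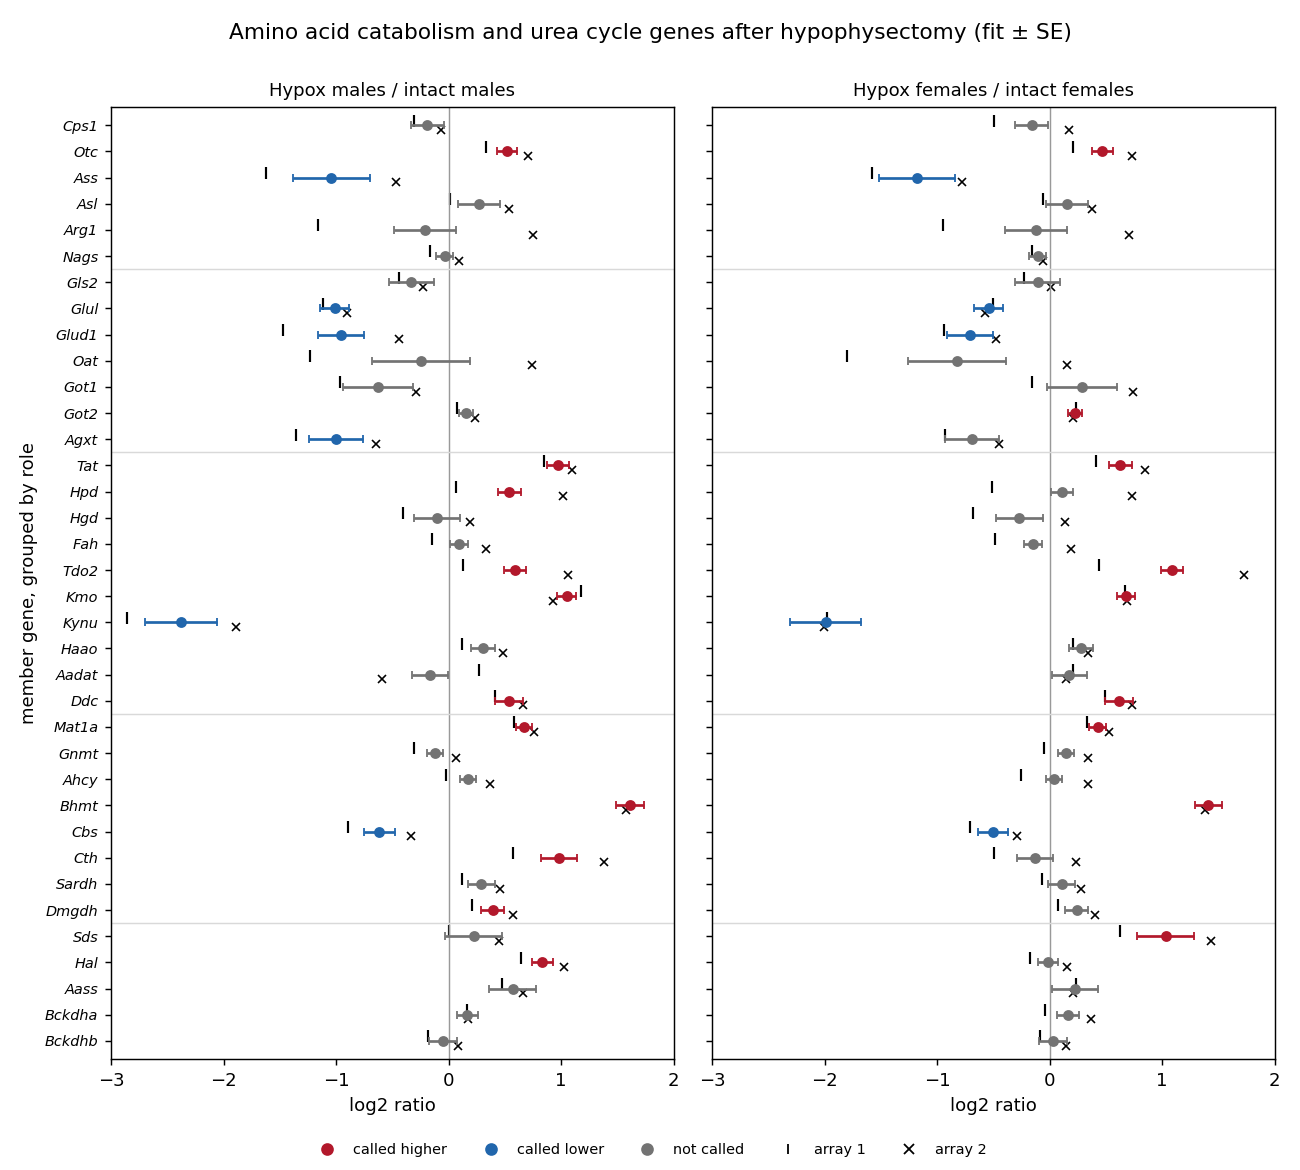
Log2 ratio (x axis) of each of the 36 members (y axis, grouped by role) for Hypox over intact males and Hypox over intact females. Circles are fitted values ± SE, coloured by call, and bars and crosses are arrays 1 and 2. Kynu lies farthest to the left in both panels, at -2.38 in males and -1.99 in females.

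The change of largest size among the members was that of Kynu, kynureninase, which splits kynurenines on the way from tryptophan to NAD. Its log2 ratio was -2.86 on array 1 and -1.89 on array 2, and low on both. The fit gave -2.38 ± 0.32, a 5.19-fold fall (adjusted p = 0.000854). Kmo, the monooxygenase that acts just before it, went the other way. Its arrays gave 1.17 and 0.93, a fitted rise of 1.05 ± 0.08 (adjusted p = 6.82e-05). Tdo2, which opens the tryptophan ring at the start of the pathway, rose by 0.59 ± 0.10, with 0.12 and 1.06 on the 2 arrays. Haao, the dioxygenase that acts after kynureninase, had 0.30 ± 0.11 and was not called.

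Tat, which starts tyrosine breakdown, had ratios of 0.85 and 1.10 and a fitted rise of 0.97 ± 0.10 (adjusted p = 0.00024). Hpd, the dioxygenase after it, rose by 0.54 ± 0.10, with array values of 0.07 and 1.02 that were both above 0 but far apart. A dye effect of 0.45 on the log2 scale was called for Hpd, and the fit removes it. The later steps did not pass the test, with -0.10 ± 0.21 for Hgd (homogentisate dioxygenase) and 0.09 ± 0.08 for Fah (fumarylacetoacetase). Ddc, the aromatic amino acid decarboxylase, rose by 0.54 ± 0.12.

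In the methionine cycle, Mat1a, which makes S-adenosylmethionine in adult liver, rose by 0.67 ± 0.07. Cth, the lyase that releases cysteine from cystathionine, was above 0 on both arrays, at 0.57 and 1.38. Its fitted rise was 0.98 ± 0.16 (adjusted p = 0.00212). Cbs, the synthase that makes cystathionine, fell by 0.61 ± 0.13, so the paired steps of transsulfuration moved in opposite directions. Dmgdh, which removes a methyl group from dimethylglycine, rose by 0.39 ± 0.10. Bhmt, which remethylates homocysteine with betaine, had 1.62 ± 0.12 (adjusted p = 0.00164). That value stands outside the rule for named genes because it rests on 1 array: the probe was flagged as an outlier on array 1 of all 4 comparisons without hormone. The second Bhmt probe had 0.16 and was not called.

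The 3 lower genes of the glutamate group were Glul, Glud1 and Agxt. Glul, glutamine synthetase, had log2 ratios of -1.11 and -0.91 on the 2 arrays, low on both. The fitted fall was -1.01 ± 0.13 (adjusted p = 0.000712). A second Glul probe gave -0.91 and was called, and the third, dimmer one gave -0.20 and was not. Glud1, glutamate dehydrogenase, had -1.47 and -0.44 and a fitted value of -0.95 ± 0.21 (adjusted p = 0.00791), and its other probes, at -0.81 and -0.80, were called too. Agxt, alanine-glyoxylate aminotransferase, had -1.36 and -0.65 and a fitted value of -1.0 ± 0.24 (adjusted p = 0.013). The cytosolic and mitochondrial aspartate aminotransferases Got1 (-0.63 ± 0.31) and Got2 (0.15 ± 0.06), the liver glutaminase Gls2 (-0.33 ± 0.20) and ornithine aminotransferase Oat (-0.24 ± 0.44) were not called.

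The urea cycle did not move as a block. Ass, argininosuccinate synthetase, was low on both arrays, at -1.62 and -0.46. Its fitted value was -1.04 ± 0.34 (adjusted p = 0.0427), a call lost with the array number as a further term in the fit, the replicate block (adjusted p = 0.0616). Otc, ornithine transcarbamylase, rose by 0.52 ± 0.09. Cps1, which makes carbamoyl phosphate and is the entry point of the cycle, had -0.19 ± 0.14, with a 95% interval from -0.52 to 0.14. Nags, which makes the activator of Cps1, had -0.03 ± 0.08, Asl (argininosuccinate lyase) 0.27 ± 0.19 and Arg1 (arginase) -0.21 ± 0.28. The Arg1 arrays disagreed in sign, at -1.16 and 0.75, and its dye effect was called. Of the remaining members, Hal, histidine ammonia-lyase, rose by 0.83 ± 0.09, with 0.64 and 1.02 on the arrays.

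Hypophysectomy in females was measured against other RNA, with no liver shared with the male comparison. It raised 9 members and lowered 5 of 36, against 36.3% of all probes (17.9% higher and 18.4% lower) and 47.5% of the brightest 10%. Of the members called higher, 7 of 11 in males and 7 of 9 in females were the same genes: Otc, Tat, Tdo2, Kmo, Ddc, Mat1a and Bhmt. The value of Bhmt rests on array 2 alone in each sex. The 5 members lower in females, Kynu, Ass, Glud1, Glul and Cbs, were all among the 6 lower in males. How many of all probes were called in both sexes was not counted, so the overlap is not read as particular to the members. Kynu had -1.98 and -2.01 on the arrays and a fitted value of -1.99 ± 0.32, a 3.98-fold fall (adjusted p = 0.00205). Ass gave -1.58 and -0.78 on the arrays, both low, for a fitted -1.18 ± 0.34 (adjusted p = 0.0278).

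Tdo2 was high on both female arrays, at 0.44 and 1.73, and its fitted value was 1.09 ± 0.10 (adjusted p = 0.000134). The gap between those arrays goes with a dye effect of 0.50 on the log2 scale, which the fit removes. Sds, serine dehydratase, which turns serine into pyruvate for glucose synthesis, had 0.63 and 1.44 and a fitted rise of 1.03 ± 0.25 (adjusted p = 0.0143); in males it had 0.22 ± 0.25. Kmo (0.68 ± 0.08), Tat (0.63 ± 0.10) and Ddc (0.61 ± 0.12) rose and Glud1 (-0.71 ± 0.21), Glul (-0.54 ± 0.13) and Cbs (-0.50 ± 0.13) fell. Got2 rose by 0.22 ± 0.06. Without array 1 the number of members called was 9, and without array 2 it was 5.

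Markers of other cells moved with hypophysectomy. All 3 erythroid markers fell in both sexes, with median log2 ratios of -2.07 in males and -1.04 in females. Their summed level was 13.0 to 13.9 on the log2 intensity scale in intact males, 9.87 to 11.0 in Hypox males, 13.0 to 13.5 in intact females and 11.6 to 12.1 in Hypox females. Bile duct markers rose for 3 of 4 genes in both sexes, with a summed level of 11.0 to 11.2 in intact and 12.6 to 13.2 in Hypox males. In females that level was 11.1 to 11.3 in intact and 12.8 to 12.9 in Hypox livers. Of the 8 hepatocyte markers 3 fell in males, and in females 1 fell and 1 rose. All markers of these 3 lists were well above background on every array. Lymphocyte markers rose for 4 of 6 in males and 3 of 6 in females, and endothelial markers for 3 of 5 and 3 of 4. The summed lymphocyte level was 10.5 to 10.6 in intact and 10.8 to 11.0 in Hypox males, and 10.8 to 10.9 in intact and 11.1 to 11.2 in Hypox females. The summed endothelial level was 14.2 to 14.6 in intact and 14.5 to 14.8 in Hypox males, and 14.5 to 14.7 in intact and 14.8 to 15.0 in Hypox females. Of 6 stellate cell and fibroblast markers 3 fell and 1 rose in males (median -0.65), and 2 fell in females (median -0.47). Their summed level was 15.5 to 15.7 in intact and 15.0 to 15.5 in Hypox males, and 15.5 to 15.6 in intact and 15.1 to 15.4 in Hypox females. Of 7 macrophage markers 2 rose and 1 fell in each sex. Of the pancreas markers tested 1 of 3 fell in males and 2 of 5 in females, and 0 rose. Their values ran from -0.52 to 1.55 in males and from -4.15 to 1.09 in females. The part of all these markers in the members' values was not tested.

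The change with hypophysectomy differed between the sexes for 6 of 36 members, 4 with a higher value in males and 2 with a lower one, against 13.5% of all probes (6.48% higher and 7.02% lower) and 17.9% of the brightest 10%. The share of members called, 16.7%, was near that of other bright probes. The difference was estimated as the mean of the direct routes through the 4 RNAs. The fit takes the comparisons on these routes as independent, though pairs of them share a kind of RNA. Array deviations of the pair with Hypox males on the same side correlated with r of 0.84. Whether pools are shared was not tested, and if they are, the SE and adjusted p of this difference may be too low. Cth had the widest gap, 0.97 ± 0.16 (adjusted p = 0.00551), with 0.98 in males and -0.13 ± 0.16 in females. Hal differed by 0.79 ± 0.09 (adjusted p = 0.000998), with 0.83 in males and -0.01 ± 0.09 in females. Kmo (0.38 ± 0.08, adjusted p = 0.0205) and Hpd (0.38 ± 0.10, adjusted p = 0.0417) also had the larger value in males, and the call of Hpd was lost with the replicate block (adjusted p = 0.0503). Tdo2 differed the other way, by -0.57 ± 0.10 (adjusted p = 0.00732), and so did Gnmt, glycine N-methyltransferase, which uses up S-adenosylmethionine, by -0.28 ± 0.07 (adjusted p = 0.0389). Cth, Hal and Tdo2 were called whichever of the 8 arrays was left out, while Gnmt, Hpd and Kmo lost the call without some of them. Without array 1 of the comparison between Hypox males and Hypox females, 3 members were called.

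In intact livers 9 members differed between the sexes, 4 higher and 5 lower in males, against 15.5% of all probes (8.06% higher and 7.42% lower) and 21.2% of the brightest 10%. Hal was lower in males on both arrays, at -0.85 and -0.90. The fitted value was -0.88 ± 0.09 (adjusted p = 0.000432), and its second probe gave -0.90. Cth had -0.44 and -0.84, with a fitted value of -0.64 ± 0.16 (adjusted p = 0.0286, and 0.0517 with the replicate block). Hpd (-0.46 ± 0.10), Kmo (-0.40 ± 0.08) and Mat1a (-0.32 ± 0.07) were lower in males as well.

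Aadat, the mitochondrial aminotransferase for kynurenine and 2-aminoadipate, was higher in males, at 0.34 and 1.16 on the arrays. Its fitted value was 0.75 ± 0.16 (adjusted p = 0.0153), and a dye effect of -0.25, which the fit removes, was called. Tdo2 was higher in males by 0.54 ± 0.10 (adjusted p = 0.00815), Gnmt by 0.42 ± 0.07 (adjusted p = 0.00589) and Got2 by 0.22 ± 0.06 (adjusted p = 0.047, and 0.0736 with the replicate block). Without array 1 this comparison called 3 members and without array 2 it called 2, with Hal called both times. None of the members' differences in intact livers reached 2-fold. In the same comparison 5 of 7 macrophage markers were lower in males, with a summed level of 15.59 to 15.71 in males and 16.03 to 16.13 in females. Lymphocyte markers were lower in males for 2 of 6, endothelial markers for 2 of 5, and hepatocyte markers higher for 2 of 8. Of 3 erythroid and of 3 fat markers tested 1 each was lower in males. Of 4 pancreas markers tested 1 was higher and 1 lower, with values from -3.93 to 0.62. The part of all these markers in the members' values was not tested.

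**Figure D2:**
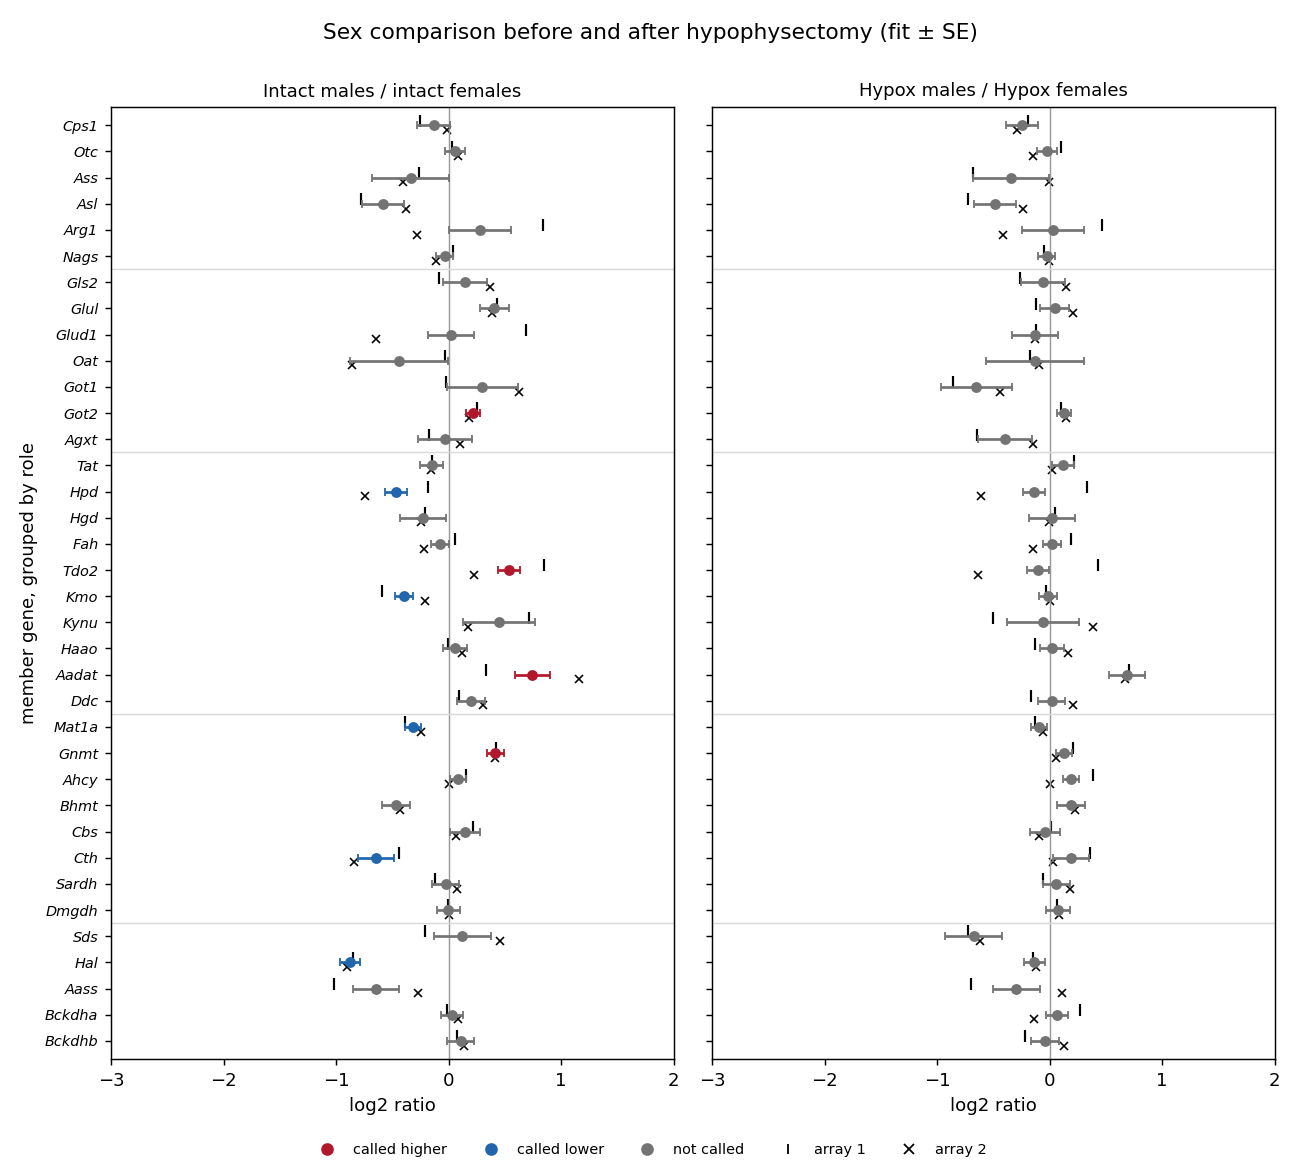
Log2 ratio (x axis) of each member (y axis, grouped by role) for intact males over intact females and Hypox males over Hypox females. Circles are fitted values ± SE, coloured by call, and bars and crosses are arrays 1 and 2. In the left panel 9 members are coloured as called, and in the right panel 0.

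Between Hypox males and Hypox females 0 of 36 members were called by limma, against 0.949% of all probes (0.53% higher and 0.419% lower) and 1.15% of the brightest 10%, and 4 had an unadjusted p under 0.05. Those 4 were Aadat (0.68 ± 0.16, adjusted p = 0.109), Sds (-0.67 ± 0.25), Asl (-0.48 ± 0.19) and Ahcy (0.19 ± 0.07). Aadat had nearly the same value as in intact livers, 0.75, and did not pass the test here. Hal had -0.14 ± 0.09 and Cth 0.19 ± 0.16 in this comparison. Macrophage markers were lower in Hypox males for 4 of 7, with a summed level of 15.8 to 16.2 against 16.1 to 16.4 in Hypox females, and erythroid markers for 2 of 3. The intact and Hypox comparisons of the sexes share no RNA, and the test of their difference is the one given above for the 6 members.

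A single GH injection to Hypox males lowered 11 of 36 members and raised 0 by limma, where 14.3% of all probes were called (7.49% higher and 6.79% lower). In the brightest 10% of probes 9.39% were higher and 9.14% lower. The members' median was -0.24 and that of all probes 0.00. At an unadjusted p under 0.05, 16 members were lower and 3 higher. Ratios were below 0 on both arrays for 22 members, against 31.3% of all probes. The fall took in 4 of 8 genes of methionine, methyl groups and cysteine, 4 of 10 of the aromatic amino acids, 2 of 6 of the urea cycle and 1 of 7 of glutamate and the aminotransferases. It took in 0 of 5 genes of serine, histidine, lysine and branched-chain breakdown.

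Bhmt was low on both arrays, at -0.87 and -1.08. The fitted value was -0.98 ± 0.08 (adjusted p = 0.00531), and its second probe, with -0.85, was not called. Cth had -0.74 and -0.76 (fitted -0.75 ± 0.16, adjusted p = 0.0176). Tat had -0.71 and -0.78 (fitted -0.75 ± 0.10, adjusted p = 0.00264). For both genes the arrays lay close together. Tdo2 had -1.14 and -0.10, both low but far apart, and a fitted value of -0.62 ± 0.10 (adjusted p = 0.00565). The dye effect of Tdo2, 0.50 on the log2 scale, was called, and the fit removes it. Ahcy, which hydrolyses S-adenosylhomocysteine, had -0.77 and -0.38, for a fitted -0.58 ± 0.07 (adjusted p = 0.00177).

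Nags had -0.51 and -0.59 after the single injection, and its fitted fall was -0.55 ± 0.08 (adjusted p = 0.00317). Ddc fell by 0.52 ± 0.12 (adjusted p = 0.0273) and Otc by 0.34 ± 0.09 (adjusted p = 0.0452). Gnmt, Fah and Got2 fell by 0.31, 0.30 and 0.25. With the replicate block 8 of the 11 calls were kept, and those of Otc (adjusted p = 0.0536), Fah (adjusted p = 0.0589) and Got2 (adjusted p = 0.0531) were lost. Not called, though 0.45 to 0.74 in size, were the positive values of Got1 (0.74 ± 0.31), Aass, the start of lysine breakdown (0.65 ± 0.21), Kynu (0.55 ± 0.32), Asl (0.46 ± 0.19) and Ass (0.45 ± 0.34). These calls rest on both arrays: without array 1, 2 members were called, Nags and Tat, and without array 2, 0. With 6 of 7 macrophage markers called higher in the same comparison (median 0.26), the summed macrophage level was 15.8 to 16.2 in Hypox males and 16.3 on both arrays of the GH pool. Of the 3 erythroid markers 2 were higher after 1 injection (median 1.03), with a summed level of 9.87 to 11.0 in Hypox males and 12.0 to 12.1 in the GH pool. Higher were also 1 of 8 hepatocyte and 1 of 5 endothelial markers. Lower were 1 of 4 bile duct and 1 of 3 pancreas markers. Whether these markers bear on the members was not tested.

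**Figure D3:**
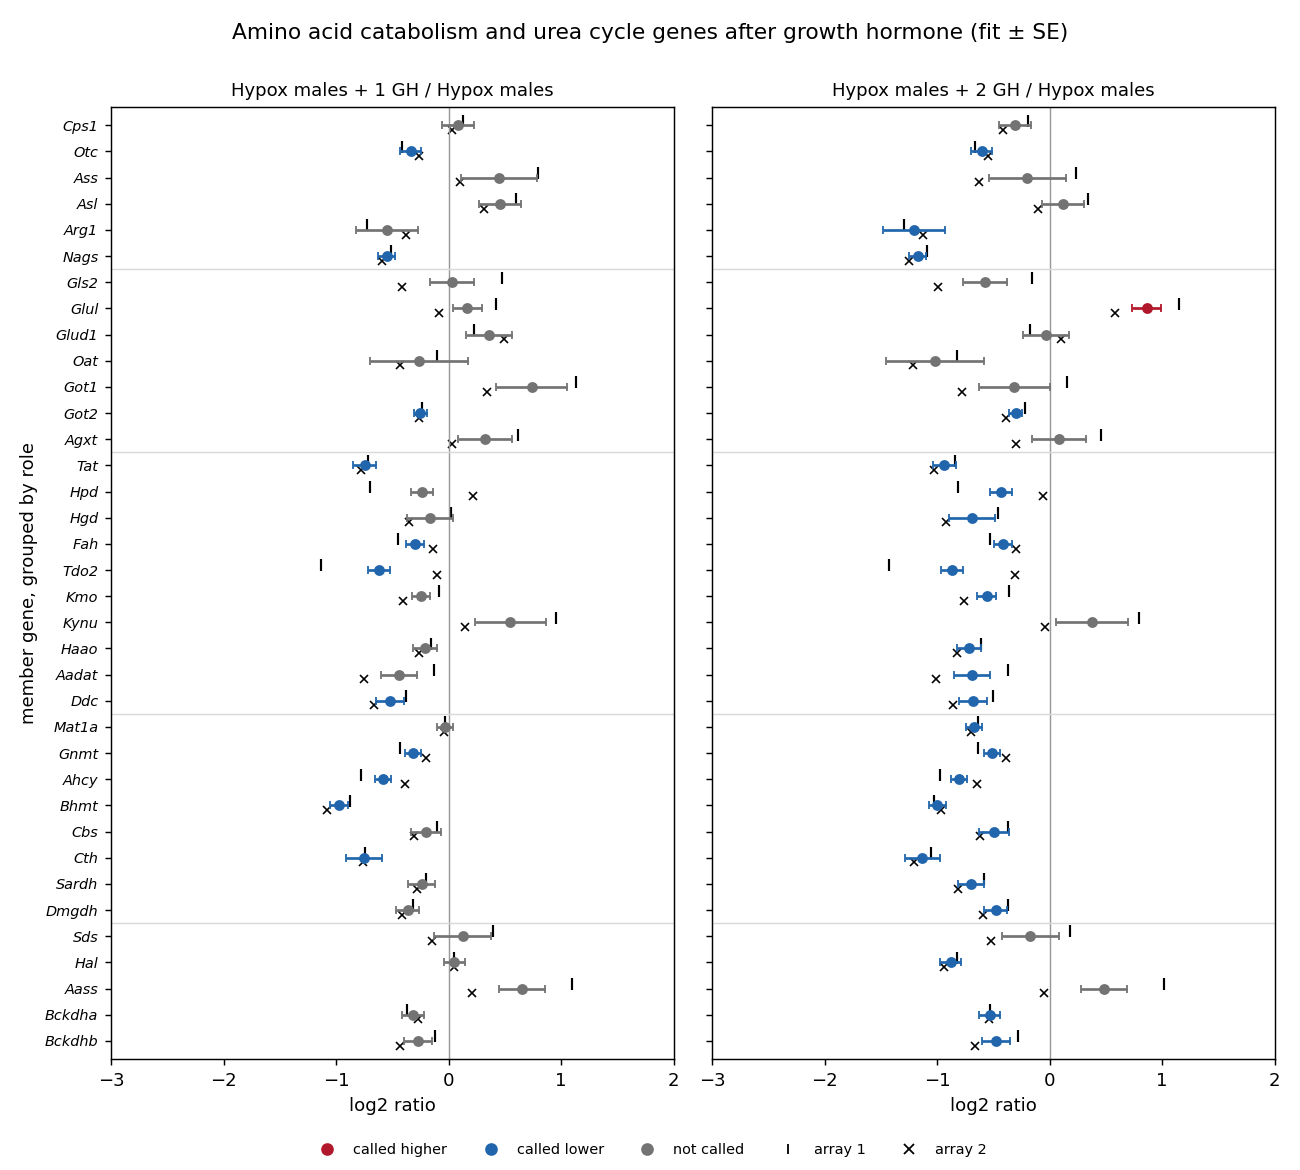
Log2 ratio (x axis) of each member (y axis, grouped by role) for Hypox males given GH in 1 injection and in 2 injections over untreated Hypox males. Circles are fitted values ± SE, coloured by call, and bars and crosses are arrays 1 and 2. In the left panel 11 members are called lower, and in the right panel 24, with Glul the 1 called higher.

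After 2 GH injections 24 of 36 members were called lower and 1 higher, where 30.9% of all probes were called (15% higher and 15.8% lower). Among the brightest 10% of probes 22.4% were higher and 26.4% lower. Of the members 66.7% were lower. The members' median was -0.55, against -0.01 for all probes and -0.04 for the brightest 10%. On both arrays 27 members lay below 0 and 1 above, against 37.9% and 33.8% of all probes. Most of the falls were below 2-fold, and 3 members, Arg1, Nags and Cth, exceeded it.

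All 8 genes of methionine, methyl groups and cysteine fell, with a median of -0.68. Cth had -1.06 and -1.21 on the arrays. Its fitted value was -1.13 ± 0.16, a 2.19-fold fall (adjusted p = 0.000945). Bhmt had -1.03 and -0.97, for a fitted -1.0 ± 0.08 (adjusted p = 0.00163). Ahcy fell by 0.81 ± 0.07, Mat1a by 0.67 ± 0.07 and Gnmt by 0.51 ± 0.07. Sardh, which demethylates sarcosine, fell by 0.70 ± 0.12, Cbs by 0.50 ± 0.13 and Dmgdh by 0.48 ± 0.10.

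Of the 10 aromatic amino acid genes 9 fell, with a median of -0.69. Tat was low on both arrays, at -0.84 and -1.03, and the fit gave -0.94 ± 0.10 (adjusted p = 0.000244). Tdo2 was low on both as well, at -1.43 and -0.31, with a fitted value of -0.87 ± 0.10 (adjusted p = 0.000333). Haao (-0.72 ± 0.11), Hgd (-0.69 ± 0.21), Aadat (-0.69 ± 0.16), Ddc (-0.68 ± 0.12), Kmo (-0.56 ± 0.08), Hpd (-0.43 ± 0.10) and Fah (-0.42 ± 0.08) made up the others. The call of Hgd was lost with the replicate block (adjusted p = 0.0564). Kynu was the exception, at 0.38 ± 0.32, which was not called.

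In the urea cycle 3 of 6 genes fell. Arg1, which releases urea from arginine, was low on both arrays, at -1.29 and -1.12. Its fitted value was -1.21 ± 0.28, a 2.31-fold fall (adjusted p = 0.0111). Nags had -1.09 and -1.25, for a fitted -1.17 ± 0.08 (adjusted p = 2.25e-05). Otc fell by 0.61 ± 0.09. Cps1 had -0.31 ± 0.14, with a 95% interval from -0.63 to 0.02, Ass -0.20 ± 0.34 and Asl 0.12 ± 0.19.

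Glul was the 1 member called higher. Its ratios were 1.15 and 0.58, high on both arrays. The fitted rise was 0.86 ± 0.13 (adjusted p = 0.0014). The second Glul probe gave 0.85 and was called, and the third gave 0.07 and was not. Around it, Got2 fell by 0.30 ± 0.06, while Oat (-1.02 ± 0.44) and Gls2 (-0.57 ± 0.20) were not called, nor were Got1 (-0.31 ± 0.31), Agxt (0.08 ± 0.24) and Glud1 (-0.03 ± 0.21).

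Hal had -0.82 and -0.94 after 2 injections, low on both arrays. The fitted value was -0.88 ± 0.09 (adjusted p = 0.000207). The subunits of the branched-chain keto acid dehydrogenase fell together, Bckdha by 0.53 ± 0.10 and Bckdhb by 0.48 ± 0.12. Aass (0.48 ± 0.21) and Sds (-0.17 ± 0.25) were not called. Without array 2 the number of members called in this comparison was 13 and without array 1 it was 20; Cth, Tat, Tdo2, Nags, Bhmt and Hal were called both times. Of the hepatocyte markers 3 of 8 rose and 0 fell here, and of the erythroid markers 2 of 3 rose and 1 fell, with a summed level of 11.1 to 11.2 in the GH pool. Lower were also 1 of 6 stellate cell and fibroblast, 1 of 5 endothelial and 1 of 3 pancreas markers. The part of these markers in the members' values was not tested.

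The 2-injection and 1-injection pools were set against each other through the Hypox male RNA that both comparisons share. Of 36 members 3 were called, all lower after 2 injections, against 10.4% of all probes (5.56% higher and 4.82% lower) and 16.8% of the brightest 10%. Hal differed by -0.93 ± 0.13 (adjusted p = 0.00465), with 0.05 ± 0.09 after 1 injection. Mat1a differed by -0.64 ± 0.10 (adjusted p = 0.00785), with -0.03 ± 0.07 after 1 injection. Nags differed by -0.62 ± 0.11 (adjusted p = 0.0108). For the other 33 members a difference between the injection schedules was not called, and the median difference over the members was -0.28. The pools differ in the number of injections and in the time at which livers were taken, which cannot be told apart. Leaving out array 1 of the 1-injection comparison left 0 of the 3 calls.

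**Figure D4:**
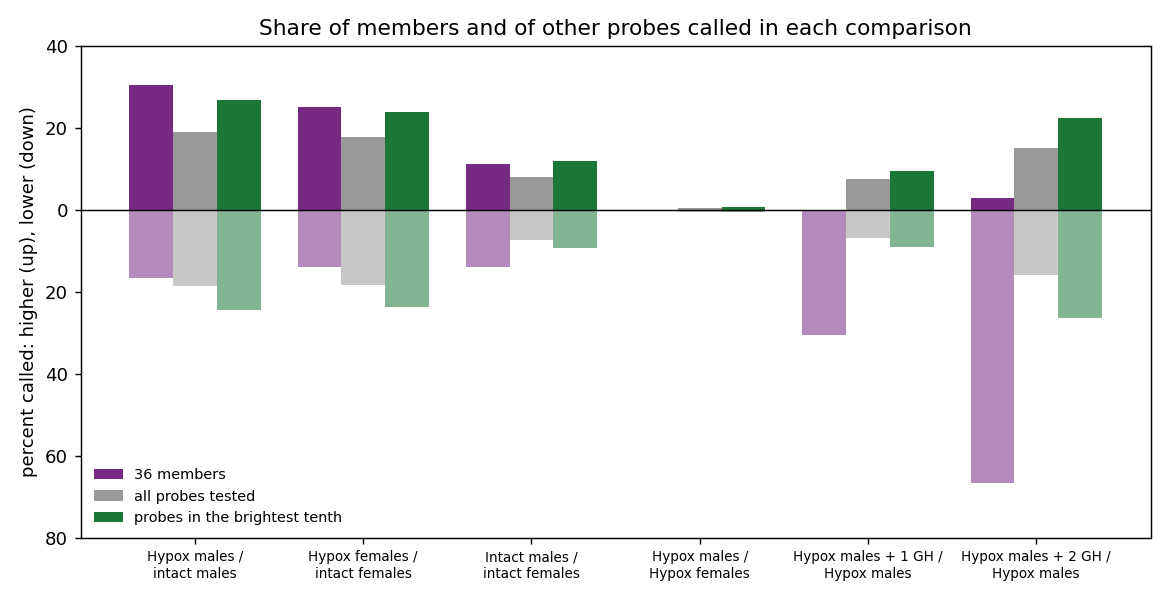
Percent called higher (upward bars) and lower (downward bars, pale) in each of the 6 comparisons, for the 36 members, all probes tested and the probes in the brightest 10%. The members' downward bar for 2 injections reaches 66.7%, against 15.8% and 26.4% for the other probes.

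Side by side, Tat had 0.97 with hypophysectomy of males, -0.75 with 1 injection and -0.94 with 2. Cth had 0.98, -0.75 and -1.13, and Tdo2 0.59, -0.62 and -0.87. Hal had 0.83, 0.05 and -0.88. Glul had -1.01, 0.17 ± 0.13 and 0.86. Kynu, with -2.38, 0.55 and 0.38, and Glud1, with -0.95, 0.36 and -0.03, were not called with either GH schedule. Cbs, with -0.61, -0.20 and -0.50, was called lower with hypophysectomy and also with 2 injections. Arg1, with -0.21, -0.55 and -1.21, and Nags, with -0.03, -0.55 and -1.17, fell with 2 injections but were not called with hypophysectomy. The members set side by side are examples, and reversals were not counted over all members. These 3 comparisons share the Hypox male RNA, so an error in that RNA enters the ratio for hypophysectomy and the ratios for GH with opposite signs.

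Arg1, Hal, Gls2, Sds and Ass are known as enzymes of the hepatocytes near the portal vein, and Glul and Oat of those near the central vein. On a list of periportal genes that contains some of the members, limma called 5 of 10 lower after 2 injections and 0 higher (6 and 0 at an unadjusted p under 0.05), where 15.8% of all probes and 26.4% of the brightest 10% were lower. On the pericentral list 4 of 9 tested were lower and 1, Glul, higher (6 and 1 at an unadjusted p under 0.05), with Slc1a2, the glutamate transporter of the cells that make glutamine, at -1.31 and Cyp2e1 at -0.87. With so few genes on each list, the counts are a description.

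Other genes of the same pathways were taken from a list of 79 names, of which 67 were found. That list was chosen with earlier results of these data known, so its counts are no independent test of the members' changes. With 2 injections of GH 37 of 65 tested were lower and 7 higher (median -0.41), against 15.8% of all probes lower and 15% higher and 26.4% and 22.4% of the brightest 10%. With 1 injection 15 of 64 were lower and 4 higher (median -0.17), against 6.79% and 7.49% of all probes and 9.14% and 9.39% of the brightest 10%. Gldc, the decarboxylase of the glycine cleavage system, fell by 0.82 ± 0.16 with 1 injection and by 1.30 ± 0.16 with 2. Qdpr, which regenerates the cofactor of phenylalanine hydroxylase, fell by 0.77 ± 0.12 and 0.92 ± 0.12, and Dao, D-amino acid oxidase, by 0.89 ± 0.13 with 2 injections. Asns, asparagine synthetase, which makes an amino acid, rose by 0.60 ± 0.09 with 1 injection and by 1.62 ± 0.09 with 2. Mat2a, the methionine adenosyltransferase of extrahepatic and growing tissue, rose by 0.40 ± 0.08 and 0.55 ± 0.08, while its liver counterpart Mat1a fell with 2 injections. Slc25a15, the mitochondrial ornithine carrier of the urea cycle, rose by 0.57 ± 0.13 with 2 injections.

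With hypophysectomy, 19 of 64 of these genes were higher and 12 lower in males, and 19 higher and 11 lower in females. Of all probes 37.5% were called in males and 36.3% in females, and of the brightest 10% 51.1% and 47.5%, so that the number of these genes called was near that of other bright probes. Gldc rose by 1.17 ± 0.16 in males and 1.54 ± 0.16 in females, and Gpt2, the mitochondrial alanine aminotransferase, by 0.75 ± 0.13 and 0.98 ± 0.13. Bckdk, the kinase that switches off the branched-chain dehydrogenase, fell by 0.79 ± 0.05 in males and by 0.92 ± 0.05 in females. Csad, which makes taurine from cysteine sulfinate, was higher in intact males than females by 3.19 ± 0.41 and fell by 2.64 ± 0.41 with hypophysectomy of males. Asns was higher in intact males by 1.44 ± 0.09, fell by 0.92 ± 0.09 with hypophysectomy of males and rose with that of females by 0.65 ± 0.09. Between intact males and females 7 of 64 were higher and 4 lower, which is near the 15.5% called over all probes and the 21.2% in the brightest 10%. Between Hypox males and females limma called 0 of 64, where 0.949% of all probes were called, with 3 lower and 0 higher at an unadjusted p under 0.05.

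Some members gave no call at all. Aass, Asl, Cps1, Gls2, Got1 and Oat were called in 0 of the 6 comparisons, and their SE ran up to 0.44. Tdo2 was called in 5 comparisons, and Bhmt, Cth, Ddc, Got2, Kmo, Mat1a, Otc and Tat in 4. Members have 45 probes in all, and only 7 members have more than 1. None of these 7 had probes called in opposite directions. Going round the loop of the 4 RNAs without hormone, the ratios should sum to 0. The median absolute sum was 0.08 for the members and 0.06 for all probes tested in those comparisons. A dye effect was called for 7 of 36 members, against 12.4% of all probes fitted.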

How the data were processed

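Liver RNA pools were hybridised in pairs, labelled with red and green Alexa dyes per the labels. The deposited scanner files hold mean and background intensity per spot (45018 spots), read with Feature Extraction 9.1.3.1 per the submitters' processing notes. The value table deposited by the authors holds log2 ratios of channel 2 to channel 1, as found by setting it against the scanner values (r of 0.953 to 1.000). Its array medians of -0.11 to 0.13 leave the centring unknown, and it was used as an alternative only. The deposited log10 ratio of red to green served that check, and deposited flags of other kinds gave detection and outliers.

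Background was removed from the intensities by normexp (offset 50), and a loess curve was fitted in every array with limma 3.58.1 (R 4.3.3, data.table version 1.17.8). Control spots (1639) had no weight and outlier spots were dropped. Spots of a probe were averaged (41012 probes). Testing required that on both arrays an RNA of the pair exceeded background clearly. The fit covered all 12 arrays with a coefficient per comparison and 1 for the dye (5 residual and 3.08 prior degrees of freedom). It joins comparisons of different pools to the GH comparisons with 1 GH pool each, so the SE of the former may be too low. Benjamini-Hochberg adjustment ran over all probes tested. Pools, not animals, are the replicates. GH p-values use the spread that the fit shares over all 12 arrays, and hold no spread between GH pools or GH animals. On 1 array of the 1-injection comparison the treatment label omits GH, and the title was followed. Arrays lay on 3 slides: the 4 GH arrays on 1, and replicate 1 and replicate 2 of the other comparisons on 1 each. Deviations of same-numbered arrays correlated positively in both pairs of comparisons with Hypox males on the same side of the ratio (r of 0.69 and 0.84). They correlated negatively in all 4 with Hypox males on opposite sides (r of -0.67 to -0.32). Pairs of comparisons with no kind of RNA in common also correlated, with r from -0.53 to 0.41. The pair with Hypox females on opposite sides had r of 0.04. Pairs with intact females on the same side and intact males on opposite sides had 0.38 and -0.46. Whether same-numbered arrays share a pool was not tested. The labels used here do not say which pool went on which array, so the replicate number was not in the fit, and calls that it ends are given beside the results.

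Members and gene lists were chosen with earlier results of these data known. Named members were the 8 with the largest absolute ratio per comparison among those called and of equal sign on the paired arrays. Others are given with fitted values. Up to 3 other pathway genes each way per comparison were named by size. Genes on marker lists were matched by symbol, accession or synonym. The fit was tested on simulated data. Alternatives were background correction, normalization, the filter on dim probes, the dye coefficient, which arrays entered the fit, replicate number or slide as a block, leaving out arrays, and the probe of a gene. Using the deposited log2 values and comparing with the brightest 10% of probes were added after the data were seen.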

Additional observations from a re-analysis of the deposited data

Results flagged for a closer look

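For 6 members the change with hypophysectomy differed between males and females by the test of the difference itself, on the log2 scale and as males minus females. These were 16.7% of the 36 members, against 13.5% of all probes and 17.9% of the brightest 10%. The share was therefore near that of other bright probes. The difference was 0.97 for Cth, 0.79 for Hal, 0.38 for Hpd, 0.38 for Kmo, -0.57 for Tdo2 and -0.28 for Gnmt. All 6 also differed between intact males and intact females, a comparison whose RNAs enter this test. Leaving out single arrays moved Cth between 0.83 and 1.11, Hal between 0.71 and 0.88 and Tdo2 between -0.68 and -0.45. Gnmt had 0.42 ± 0.07 between intact sexes and 0.13 ± 0.07 between Hypox sexes.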

How the results depend on the processing

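No named value reversed under any alternative run. With median centring in place of loess the number of members called was 0 in all comparisons, from 17 for hypophysectomy in males, 14 in females, 9 between intact sexes, 11 after 1 injection, 25 after 2 injections, 6 for the sex difference of hypophysectomy and 3 for 2 injections against 1. The median ratio of the members after 2 injections was then -1.04, and 75 probes were called in place of 8773. Over the comparisons, median centring called 0 to 370 probes, where the values in the text rest on 247 to 9737. The cause was not tested. Agilent processed signals called 5 members after 1 injection. Without a dye coefficient 5 were called after 1 injection, 2 between intact sexes and 2 for the sex difference. With only the 2 arrays of a comparison, and so fewer degrees of freedom, 3 were called after 1 injection, 14 after 2 and 10 for hypophysectomy in males. Leaving out an array, with the lone array assumed to vary like the others, gave 5 to 9 members for hypophysectomy in females, 14 to 16 in males, 0 to 2 after 1 injection, 13 to 20 after 2, 2 to 3 between intact sexes, 3 to 8 for the sex difference and 0 to 2 for 2 injections against 1.

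With the replicate number as a block, 45 of 49 named values kept their call. Over all members, the block ended 8 calls and added 0, each given beside its result. Among the named values these were Otc after 1 injection (-0.34, adjusted p = 0.0536), Hpd in the sex difference (0.38, adjusted p = 0.0503), Ass in males (-1.04, adjusted p = 0.0616) and Cth between intact sexes (-0.64, adjusted p = 0.0517). The block called 16 members for hypophysectomy in males, 14 in females, 8 after 1 injection and 24 after 2. With slide as a random block 49 of 49 kept the call, with the deposited log2 values 47 of 49, and with the mean over a gene's probes 47 of 49, Bhmt after both GH schedules being the exceptions. Array number limits what can be called: members not called had SE up to 0.44.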
